A study of Mus musculus with 21 samples.

Results

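The 7 genes described here belong to the Wnt and BMP signalling pathways and were followed across 21 mouse arrays: Rspo1, Wnt9a, Fzd10, Bmp2, Ctnnb1, Axin2 and Lrp6. They are 7 of the 20018 genes that had a named probe. Rspo1 was chosen by its measured level in progenitors lacking Bach1 and Bach2, and Wnt9a, Fzd10 and Bmp2 were chosen by theirs in progenitors given Bach2. In those comparisons their values are a description, and a call of them there follows from the choice and counts as no test. Ctnnb1, Axin2 and Lrp6 are shared parts of the Wnt pathway. No cut-off on a value decided membership. Each gene is given by its brightest named probe over all arrays, and the second probes of Axin2 and Lrp6 are given as a check.

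The arrays held 7 groups of 3, from 3 experiments on the related transcription repressors Bach1 and Bach2. Common lymphoid progenitors of the bone marrow (CLPs), which can form B, T and NK cells, came from wild-type mice (WT CLP) or from mice with compound Bach1 and Bach2 deficiency (DD CLP). The CLPs were pooled from mice and partly depleted of lineage-positive cells on beads before sorting. Multipotent progenitors (MPPs; Lin-, c-kit+, Sca-1+, Flt3mid) all came from wild-type mice, with 4 mice pooled per experiment. They were held overnight in SCF, IL-3 and IL-6 and then received a retrovirus. It carried GFP alone (MSCV-GFP, the control vector) or Bach2 and GFP (Bach2-GFP, the Bach2 vector). Both groups had 2 days of multilineage culture before a sort for GFP. Another MPP group carried the same Bach2 vector, had 24 h of multilineage and then 6 days of B-lineage culture, and was sorted for GFP and B220 (B220+ Bach2-vector). It therefore differs from the other MPP groups in time, medium and gate, and no B220+ control-vector arrays were analysed here. Follicular B cells (FoB) of wild-type and Bach2-knockout mice (Bach2KO) were cultured with an anti-IgM Fab' fragment (10 ug/ml, 24 h), which engages the B-cell receptor. Nothing in the labels says that the FoB arrays of a group came from separate animals, so their p-values may measure technical spread only.

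Wnt proteins are secreted signals that bind Frizzled receptors together with the co-receptor Lrp5 or Lrp6. In the canonical branch this stops the destruction of beta-catenin, which then enters the nucleus and acts with Tcf and Lef factors. R-spondins are secreted amplifiers: they remove the ubiquitin ligases Rnf43 and Znrf3, which otherwise clear Frizzled receptors from the cell surface. BMPs are secreted ligands of another family, which signal through receptor kinases and Smad proteins to targets such as the Id genes. Both families act on blood-forming cells and on the stromal cells around them. In a sorted population, fewer cells that express a gene and less of its RNA per cell cannot be told apart.

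The promoters of the 3 Wnt-pathway members that varied most between groups are shown so that their sequences can be set side by side: in MPPs, mean Rspo1 was lower and mean Wnt9a and Fzd10 were higher in both Bach2-vector groups than with the control vector. RefSeq promoter windows (GRCm38.p6) matched 5 of the 7 members, in 6 windows; Bmp2 and Lrp6 had none. The 250 bases before each gene's annotated start are given on the gene's own strand, which is the plus strand for all 3, and capitals mark CG dinucleotides. The windows are chr4:124986180-124986429 for Rspo1, chr11:59306680-59306929 for Wnt9a and chr5:128600856-128601105 for Fzd10.
Rspo1: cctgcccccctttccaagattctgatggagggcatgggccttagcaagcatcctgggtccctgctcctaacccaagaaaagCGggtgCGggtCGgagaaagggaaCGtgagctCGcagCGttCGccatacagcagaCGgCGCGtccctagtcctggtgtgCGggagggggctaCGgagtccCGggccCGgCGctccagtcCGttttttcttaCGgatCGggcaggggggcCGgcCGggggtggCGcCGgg
Wnt9a: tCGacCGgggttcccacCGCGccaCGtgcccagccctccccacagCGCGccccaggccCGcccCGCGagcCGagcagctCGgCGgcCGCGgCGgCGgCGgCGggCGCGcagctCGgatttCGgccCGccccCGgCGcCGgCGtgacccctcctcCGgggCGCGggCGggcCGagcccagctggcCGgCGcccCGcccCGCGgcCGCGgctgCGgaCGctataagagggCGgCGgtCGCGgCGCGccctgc
Fzd10: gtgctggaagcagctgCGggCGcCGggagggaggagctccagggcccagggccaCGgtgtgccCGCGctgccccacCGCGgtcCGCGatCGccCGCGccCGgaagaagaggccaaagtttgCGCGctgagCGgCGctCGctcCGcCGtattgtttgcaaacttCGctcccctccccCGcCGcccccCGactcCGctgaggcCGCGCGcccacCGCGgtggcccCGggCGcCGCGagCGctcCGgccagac
Over all 32851 windows the median number of CG dinucleotides in these 250 bases was 6, with quartiles of 2 and 16. Rspo1 had 22, Fzd10 37 and Wnt9a 48, and the windows of Axin2 (24) and Ctnnb1 (35 and 43) were also above the upper quartile. The GC content was 66.8% for Rspo1, 76.4% for Fzd10 and 84.4% for Wnt9a, against a median of 52.4%. TGAGTCA, the core that AP-1 proteins and Bach-Maf pairs bind, was searched on both strands; 0 of the 6 member windows held it, as against 4.46% of all windows. The overlapping antioxidant response core TGACNNNGC stood in 1 member window, of Ctnnb1, and in 10.2% of all. The Tcf and Lef motifs CTTTGAA and CTTTGAT stood in 0 of the 6, and in 4.46% and 3.21% of all windows. A match or its absence in these 250 bases describes the letters only and shows no binding.

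All levels below are log2 of the processed spot intensity minus the array's own 75th percentile, so 0 is the brightness that 25% of spots exceeded and each unit is a doubling. Differences are on the same log2 scale. A gene was measured on an array where the scanner software marked its spot as well above background. That share was 62.6% to 81.5% of spots on CLP and MPP arrays and 50.9% to 58.8% on FoB arrays. The lowest level still measured was -7.29 to -5.81 in CLPs and MPPs but -5.34 to -3.34 in FoB, where a gene could go unmeasured at a level readable elsewhere. Bach2 itself was lower in DD CLPs (0.33 ± 0.75, SD, n = 3) than in WT CLPs (2.45 ± 0.98), and lower in Bach2KO FoB (-0.39 ± 0.54) than in WT FoB (3.37 ± 0.27). In neither pair did the arrays overlap. Bach1 levels of DD CLPs (0.88 to 2.41) overlapped those of WT CLPs (1.87 to 2.17), and Bach2 levels overlapped between the Bach2 vector (-2.57 to -0.92) and the control vector (-3.87 to -2.15). In the B220+ cells, which carry the Bach2 vector, Bach2 read -2.75, -2.49 and -4.10, which also overlaps the control vector; whether these probes lie in the deleted or the inserted part was not tested. Differences were tested with limma and p-values adjusted by Benjamini-Hochberg over every gene tested, with 0.05 as the threshold.

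Rspo1, the R-spondin that amplifies Wnt signals, was well measured in 3 groups only: DD CLP, control-vector MPP and, near the lower limit, WT CLP. In WT CLPs it read -5.40, -5.47 and -5.75, and in DD CLPs -0.85, -1.62 and -0.53. Every DD array lay far above every WT array, with a mean difference of 4.54 ± 0.39 (SE), or 23.3-fold. This is the contrast that chose the gene. Between arrays of the same number, which also share a slide, the differences were 4.55, 3.85 and 5.22. With background correction by normexp the difference was 3.47.

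In the MPPs, which the rule that chose Rspo1 did not use, the gene ran lower with the Bach2 vector. The members were chosen with earlier results of these data known, so the MPP tests of Rspo1 are not fully independent of the choice. Control-vector arrays read -2.57, -3.27 and -4.58, and Bach2-vector arrays -5.01, -5.43 and -6.85, the last of them not above background. The lowest control-vector array was above the highest Bach2-vector array. The difference was -2.29 ± 0.73 (SE) and did not pass when the arrays were taken as unpaired (adjusted p = 0.253). The same-numbered arrays of both vectors deviated together over all genes, as did differently numbered arrays that share slide 2. Between same-numbered arrays the Rspo1 differences were -2.45, -2.16 and -2.27. The last of these rests on the Bach2-vector reading that was not above background, so the closeness of the 3 values is partly that of a background reading. With the replicate number as a block, Rspo1 passed at the same difference (adjusted p = 0.00620 over the 9 MPP arrays, and 0.00408 with the 6 arrays of both vectors alone, an alternative added after seeing the data). The block over 9 arrays also matches the B220+ arrays by number, which does not pair them. Their same-numbered correlations were 0.12, -0.04 and -0.06 with the control vector and 0.08, 0.12 and 0.10 with the Bach2 vector. Within slide 1 the difference was -2.45 and within slide 2 it was -2.21; with the slide as a block the adjusted p was 0.175.

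In the B220+ Bach2-vector cells Rspo1 was not above background on any array, at -6.64, -6.96 and -8.80. Against control-vector MPPs it was at least 7.07-fold lower and passed (difference -4.00 ± 0.73, adjusted p = 0.00831). Here and below, "at least" sets the brighter group's mean against the lowest level measurable on the dimmer group's arrays, or the dim probe's own level where that is higher. Under normexp the difference was -1.37 and the call was lost (adjusted p = 0.0539). Slide 1 holds all B220+ arrays but 1 control-vector array; within it the difference was -4.90, and with the slide as a block -4.82 (adjusted p = 0.0115). Against Bach2-vector MPPs the difference was -1.71 ± 0.73 and the arrays overlapped (adjusted p = 0.194). In FoB cells Rspo1 was not above background on any of 6 arrays, at -7.09 to -5.59. In order of level, DD CLP stood above control-vector MPP and that above WT CLP without overlap; WT CLP and all lower groups overlapped with their neighbour. Of the other 3 R-spondins, Rspo4 was measured on all arrays of the 5 progenitor groups, and it passed in no comparison.

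**Figure D1:**
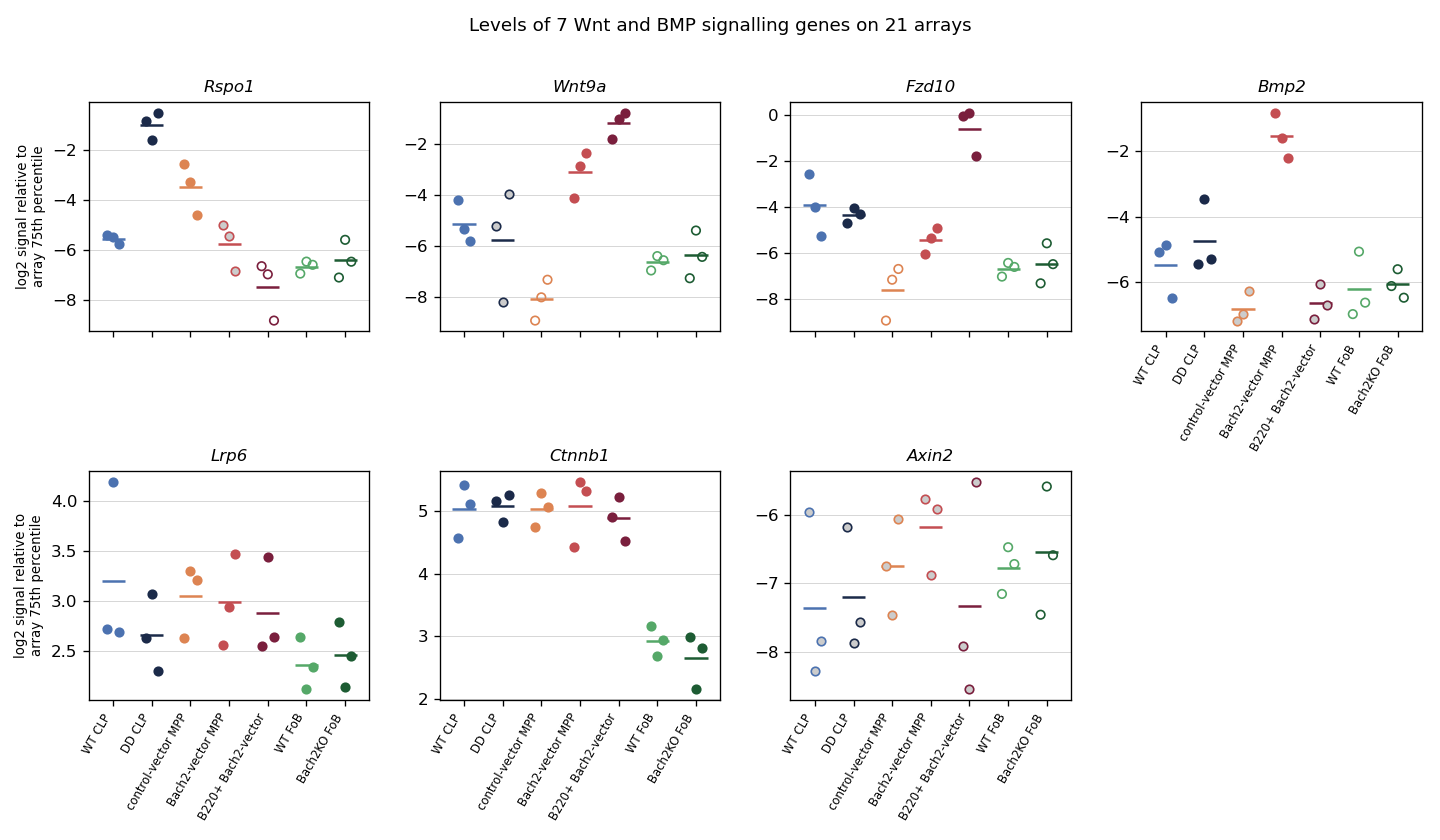
Level of each of the 7 genes (log2 signal minus the 75th percentile of its array, a separate scale per panel) on each of the 21 arrays by group, with a bar at the group mean. Filled points are groups measured on 3 of 3 arrays, grey points groups measured on 1 or 2, and open points groups with no array above background; Rspo1 peaks in DD CLPs, Bmp2 in Bach2-vector MPPs, and Wnt9a and Fzd10 in B220+ Bach2-vector cells.

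Wnt9a, a Wnt ligand, went from unmeasured with the control vector to measured on all 3 Bach2-vector arrays. Fzd10 did so too, at a lower level (mean of -5.44, against -3.10 for Wnt9a). In control-vector MPPs it read -8.93, -8.02 and -7.33, with no array above background. In Bach2-vector MPPs it read -4.13, -2.84 and -2.33, and in B220+ cells -1.77, -1.01 and -0.76. The 3 groups did not overlap and stood in that order. These are the comparisons that chose the gene: Wnt9a was at least 11.3-fold higher with the Bach2 vector (difference 4.99 ± 0.55, SE) and at least 42.7-fold higher in the B220+ cells (6.91 ± 0.55) than with the control vector. From Bach2-vector MPPs to B220+ cells the difference was 1.92 ± 0.55. Same-numbered arrays differed by 4.81, 5.18 and 5.00 between vectors. Normexp gave differences of 2.13 and 3.71 against the control vector, a smaller size in the same direction.

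The CLPs did not enter the choice of Wnt9a. WT CLPs read -4.19, -5.34 and -5.82. DD CLPs read -5.21, -8.19 and -3.94, of which the second was not above background. The DD arrays spanned the whole WT range and more, with a difference of -0.67 ± 0.98 (adjusted p = 0.999), and without DD replicate 2 the sign turned (0.54). In FoB cells Wnt9a was not above background on any array (-7.27 to -5.39). Wnt9a was 1 of 19 Wnt ligands on the arrays. Of these, 10 were measured on all arrays in each of the control-vector and Bach2-vector MPPs, and both sets held the same 9 genes beside Wnt9b, which was in the control set only, and Wnt9a, which was in the Bach2 set only.

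Fzd10, a Frizzled receptor for Wnt ligands, was highest in the B220+ cells. It read -8.96, -7.18 and -6.71 with the control vector, on no array above background. It read -6.06, -5.34 and -4.92 with the Bach2 vector and -0.04, 0.12 and -1.79 in B220+ cells. The groups did not overlap. These values chose the gene: Fzd10 was at least 2.16-fold higher with the Bach2 vector (difference 2.18 ± 0.68, SE), at least 63.1-fold higher in B220+ cells than with the control vector (7.05 ± 0.68), and 29.2-fold higher in B220+ cells than with the Bach2 vector (4.87 ± 0.68). The change between vectors thus lay close to the limit of measurement, and normexp put it at 0.62, whereas that to the B220+ cells was 4.24 under normexp.

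In CLPs Fzd10 was measured on all 6 arrays, at -2.54, -3.99 and -5.25 in WT and -4.70, -4.06 and -4.30 in DD. The WT arrays spread over a wider range that covered all DD arrays. The difference was -0.43 ± 0.64 (adjusted p = 0.999), and it turned to 0.27 without WT replicate 1. Fzd10 was not above background in FoB cells (-7.34 to -5.59). In order of level, B220+ cells stood above WT CLPs, and DD CLPs above Bach2-vector MPPs, without overlap; WT and DD CLPs overlapped, as did the groups below.

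Lrp6, the co-receptor that pairs with Frizzleds, was measured on all 21 arrays and changed in no comparison by its main probe. WT CLPs read 2.72, 4.19 and 2.68, and DD CLPs 2.62, 3.06 and 2.30. Control-vector MPPs read 2.63, 3.30 and 3.21, Bach2-vector MPPs 2.56, 2.94 and 3.47, and B220+ cells 2.54, 3.44 and 2.64. All 7 groups overlapped with their neighbours in order of level. The differences were -0.54 ± 0.48 (SE) in CLPs, -0.06 ± 0.35 between vectors, -0.17 ± 0.35 from control-vector MPPs to B220+ cells, -0.11 ± 0.35 from Bach2-vector MPPs to B220+ cells, and 0.09 ± 0.32 in FoB (adjusted p = 0.772 to 1.000 over the 5).

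The second Lrp6 probe gave another picture for the B220+ cells. It read -1.77, -1.64 and -2.10 in control-vector MPPs, -2.32, -2.12 and -1.61 in Bach2-vector MPPs, and -3.44, -4.29 and -4.02 in the B220+ cells. All B220+ arrays were below all arrays of both other groups, by 2.08 and 1.90 on average. With both probes averaged, Lrp6 passed as lower in B220+ cells than in control-vector MPPs (difference -1.12, adjusted p = 0.0276). Which transcripts each probe detects was not tested, and the probes' levels cannot be set against each other.

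Ctnnb1, which encodes beta-catenin, was among the brighter genes. WT CLPs read 4.58, 5.43 and 5.11, and DD CLPs 5.16, 4.84 and 5.26. Control-vector MPPs read 4.75, 5.29 and 5.08, Bach2-vector MPPs 4.44, 5.48 and 5.33, and B220+ cells 4.91, 5.23 and 4.52. These 5 groups overlapped throughout. FoB arrays were lower, at 3.17, 2.69 and 2.94 in WT and 2.99, 2.15 and 2.82 in Bach2KO, below every progenitor array; they were amplified separately and this gap has no test. The differences were 0.05 ± 0.36 (SE) in CLPs, 0.04 ± 0.34 between vectors, -0.15 ± 0.34 from control-vector MPPs to B220+ cells, -0.19 ± 0.34 from Bach2-vector MPPs to B220+ cells, and -0.28 ± 0.34 in FoB, and none passed (adjusted p = 0.749 to 1.000). The sign in CLPs and in both B220+ comparisons turned under quantile normalization, so no direction can be given.

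Axin2, a feedback inhibitor that canonical Wnt signalling induces in many tissues, was at or near background. It was measured on 6 of 21 arrays: on 1 each of the WT CLP, DD CLP, control-vector and B220+ arrays and on 2 Bach2-vector arrays. WT CLPs read -5.95, -8.28 and -7.85, and DD CLPs -6.18, -7.87 and -7.56, too seldom above background to be tested. Control-vector MPPs read -6.74, -7.47 and -6.05, Bach2-vector MPPs -5.77, -6.87 and -5.90, and B220+ cells -7.92, -8.55 and -5.51. All groups overlapped. The differences between MPP groups, in the order used above, were 0.57 ± 0.74, -0.57 ± 0.74 and -1.15 ± 0.74 (SE), and none passed (adjusted p = 1.000, 0.626 and 0.360). Without B220+ replicate 3, the B220+ cells were lower than Bach2-vector MPPs by a difference of -2.05 that passed (adjusted p = 0.0365); that replicate was the highest of the B220+ arrays. The second Axin2 probe was above background on 1 array, of Bach2KO FoB.

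Bmp2, a BMP ligand, stood apart from the Wnt-pathway members: it was high in Bach2-vector MPPs and back near background in the B220+ cells that carry the same vector. Control-vector MPPs read -7.18, -6.98 and -6.29, with 1 array above background. Bach2-vector MPPs read -0.82, -1.60 and -2.20, and B220+ cells -7.14, -6.06 and -6.69, with 1 array above background. The Bach2-vector arrays were far above both other groups, which overlapped. In the comparisons that chose the gene, the log2 difference of Bmp2 was 5.27 ± 0.43 (SE) between the Bach2 and the control vector and -5.09 ± 0.43 between B220+ cells and Bach2-vector MPPs. Since the dim groups were measured on 1 of 3 arrays each, the size of both rests on readings at background, and under normexp background correction they were 3.25 and -2.98. Between B220+ cells and control-vector MPPs the difference was 0.19 ± 0.43. Same-numbered arrays differed between vectors by 6.36, 5.38 and 4.09, and by 6.36 within slide 1 and 4.73 within slide 2.

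In the CLPs, which the choice of Bmp2 did not use, the gene was measured on all arrays, at -5.09, -4.88 and -6.48 in WT and -5.44, -3.46 and -5.31 in DD. The arrays overlapped, with a difference of 0.75 ± 0.64 (SE; adjusted p = 0.999). In FoB cells Bmp2 was not above background (-6.98 to -5.07). Bach2-vector MPPs stood above DD CLPs without overlap, and every lower group overlapped with the next.

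**Figure D2:**
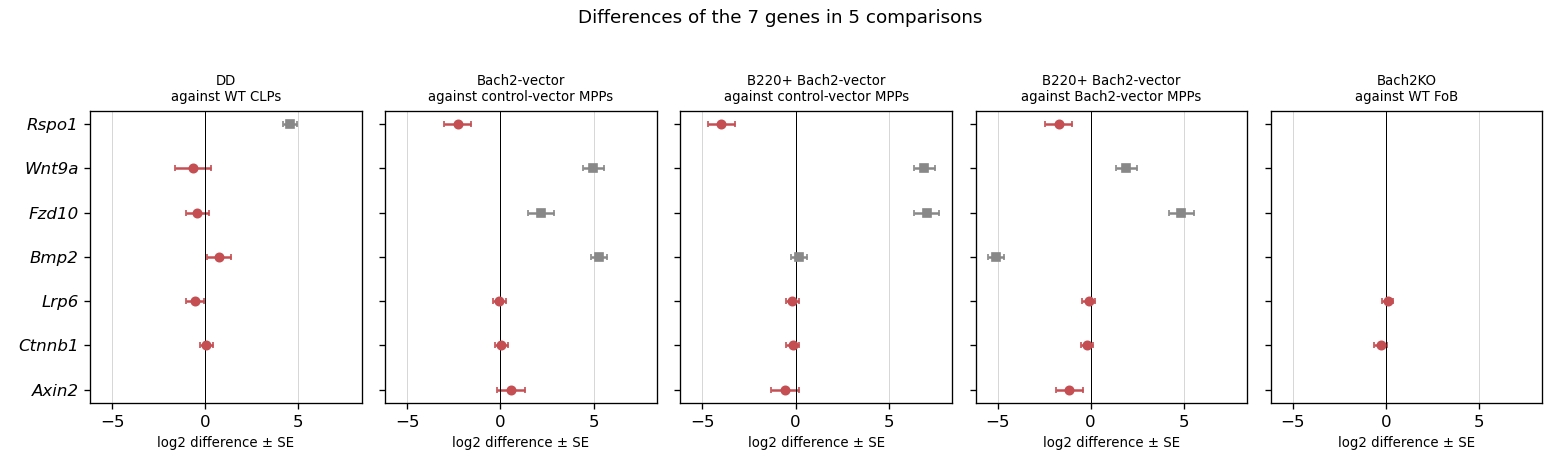
Log2 difference between group means (horizontal axis, with SE bars from limma) for the 7 genes in each of 5 comparisons. Grey squares are differences that the choice of the gene used and red circles those it did not; a gene too seldom above background to be fitted has no point. Among the red circles, Rspo1 lies at -2.29 between vectors and at -4.00 between B220+ cells and control-vector MPPs, while Ctnnb1 and Lrp6 lie near 0 except for Lrp6 in CLPs (-0.54).

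Counted over the members, 6 of 7 could be fitted in CLPs, 7 in each MPP comparison and 2 in FoB. Rspo1 was the 1 member called in CLPs, where 0.00607% of all genes tested were called; without any 1 of WT replicates 1, 2 or 3 or DD replicate 3, and with quantile normalization or the replicate block, neither Rspo1 nor any other gene of the Wnt and BMP lists passed there. Wnt9a and Bmp2 were called between vectors (background 1.79%), Wnt9a, Fzd10 and Rspo1 for B220+ cells against the control vector (12.1%), Fzd10 and Bmp2 for B220+ cells against Bach2-vector MPPs (6.17%), and no fitted member in FoB (2.71%). Of these calls, the rule that chose the genes did not use that of Rspo1 in the B220+ cells, though earlier results of these data were known. The others follow from the choice, and nothing is read from their number. Arrays did not overlap for 1 of 6, 4 of 7, 3 of 7, 3 of 7 and 0 of 2 fitted members in the 5 comparisons, where 7.91%, 14.9%, 34.5%, 29.2% and 18.7% of all genes did not overlap. These counts too hold the comparisons that chose Rspo1, Wnt9a, Fzd10 and Bmp2, and nothing is read from them.

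Further pathway genes were taken from a list of 93 Wnt and 48 BMP pathway genes arranged by role, all with a named probe. In CLPs 109 of the 141 could be tested and 1 passed, Rspo1 itself, which this contrast chose, beside 0.00607% of all genes. An unadjusted p under 0.05 was found for 6 of the 109 and for 620 of all 16469 genes tested. The median difference of the list was 0.01, beside 0.04 over all genes. Those with the smallest unadjusted p apart from Rspo1 were the BMP ligand Bmp7 (1.57 ± 0.48, SE), the secreted Wnt inhibitor Wif1 (-3.27 ± 1.09), the BMP target Id1 (1.81 ± 0.60) and the Wnt nuclear factor Tcf7 (-1.04 ± 0.35), and none passed (adjusted p = 0.999 for each). Wif1 read -2.37, -2.16 and -2.16 in WT CLPs and -3.53, -4.48 and -8.47 in DD CLPs, the last not above background. Its WT arrays agreed closely and its DD arrays were all lower and widely spread.

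Between the vectors, 2 of 111 tested list genes passed, beside 1.79% of all genes. Both were members that this comparison chose, Wnt9a and Bmp2, and 0 of the 104 outside the members passed. An unadjusted p under 0.05 was found for 12 of the 111 and for 1471 of all 16998 genes tested. The list's median difference was 0.04, beside -0.02 over all genes. Ccnd1, the cyclin D1 gene and a known Wnt target, came closest: control-vector arrays read 0.28, 1.13 and 1.56 and Bach2-vector arrays 2.16, 3.40 and 3.34 (1.98 ± 0.42, SE; adjusted p = 0.0562). The BMP target Id2 followed (1.40 ± 0.34, adjusted p = 0.0969), then the receptor Fzd9 (-1.29 ± 0.36, adjusted p = 0.170) and Rspo1. The arrays of all 3 did not overlap. With the replicate number as a block, 4 list genes passed, with Ccnd1 and Rspo1 joining, while 1.91% of all genes passed. In the 6 arrays of both vectors alone, again with the block, 9 passed, 7 higher and 2 lower, beside 4.96% of all genes: Bmp2, Ccnd1, Fzd10, Id2, Lef1, Tcf7 and Wnt9a were higher and Fzd9 and Rspo1 lower.

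In the B220+ cells against control-vector MPPs, 18 of 111 tested list genes passed, 8 higher and 10 lower, beside 12.1% of all genes. These 18 hold Wnt9a and Fzd10, chosen by this comparison, and Rspo1. Among the 104 tested list genes outside the members, 6 passed as higher and 9 as lower. Of the whole list, 11 passed without control-vector replicate 2. All genes together were shifted, with a median difference of -0.29 that became -0.08 under quantile normalization; the list's median was -0.19. Of all genes called, 790 of 2057 were higher, and 994 of 2025 under quantile normalization. Among the receptors, 6 of 15 fell, where 12.1% of all genes passed in either direction. The member Fzd10, chosen by this comparison, was higher. The falls were Fzd1 (-3.75 ± 0.39, SE), Fzd6 (-3.06 ± 0.54), the Wnt-binding kinase-like receptor Ryk (-2.79 ± 0.53), Fzd7 (-2.51 ± 0.56), Fzd9 (-1.91 ± 0.36) and Fzd8 (-1.09 ± 0.30). The adjusted p was 0.000562, 0.00718, 0.00997, 0.0212, 0.0100 and 0.0444 in that order.

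Fzd6 read -1.62, -0.66 and -0.70 in control-vector MPPs, -2.13, -0.82 and -0.76 in Bach2-vector MPPs and -4.83, -4.30 and -3.05 in the B220+ cells. Ryk read -0.60, -0.27 and -1.01, then -0.51, 0.15 and -1.04, and then -4.05, -4.01 and -2.17 in the same order of groups. For both receptors the vector groups overlapped and every B220+ array was below them. Fzd7 read -0.80, -0.30 and 0.01, then -2.04, -0.73 and -0.04, and then -2.54, -2.27 and -3.82. Fzd9 read 0.11, 0.27 and -0.54 with the control vector and -2.13, -2.24 and -1.52 in the B220+ cells, with the Bach2-vector arrays (-0.86, -1.23 and -1.95) reaching into the B220+ range. Fzd1 was not above background on any B220+ array and was at least 3.48-fold lower than with the control vector. Fzd6, Ryk and Fzd9 passed under every alternative in which they were tested. Fzd1 lost its call under normexp (adjusted p = 0.116). Fzd7 lost it without control-vector replicate 2 or 3, with all probes averaged or with the slide as a block, and Fzd8 in 13 of 19 alternatives.

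Among the other roles, Rnf43, a ligase that clears Frizzleds from the surface and is itself removed by R-spondins, rose in the B220+ cells. It read -3.53, -3.79 and -4.29 in control-vector MPPs, -2.34, -3.88 and -2.62 in Bach2-vector MPPs and -0.46, -0.45 and 0.20 in B220+ cells (3.63 ± 0.42, SE, against control; adjusted p = 0.00108). Its B220+ arrays were above all others, and its partner ligase Znrf3 did not pass. Ccnd1 rose further, to 4.26, 4.33 and 4.11 (3.24 ± 0.42, adjusted p = 0.00169). Of 12 nuclear factors tested, 2 rose. The co-repressor Tle2 read -5.08, -3.49 and -3.84 with the control vector and -1.72, -1.32 and 0.16 in the B220+ cells (3.18 ± 0.60, adjusted p = 0.0100). Tcf7, a Tcf factor that is also a T-lineage gene, read -3.99, -3.51 and -3.18 and then -1.57, -1.17 and 0.23 (2.72 ± 0.53, adjusted p = 0.0114). The calls of these 4 genes held in all 19 alternatives. No gene of the 18 tested cytoplasmic relay genes or the 5 secreted Wnt antagonists passed by limma; the relay gene Nkd1 and the antagonist Notum came nearest (adjusted p = 0.0621 and 0.0630).

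On the BMP side of the list, 4 of 37 tested genes passed in the B220+ cells against the control vector, where 12.1% of all genes passed. The receptor Acvrl1 (1.54 ± 0.40, SE) and the target Id2 (1.31 ± 0.34) rose, and the co-receptor Eng (-1.17 ± 0.28) and the target Id1 (-1.51 ± 0.39) fell. Their adjusted p was 0.0375, 0.0376, 0.0281 and 0.0377. The calls of these 4 were lost in 5 to 9 of 19 alternatives, each without control-vector replicate 2 among them. Kremen1, a Dickkopf receptor of the turnover group, fell as well (-1.57 ± 0.32, adjusted p = 0.0140), and its call was lost with the slide as a block and without control-vector replicate 2 or B220+ replicate 2; it and Fzd8 lie outside the rule that chose the genes to name and were added after their values were seen.

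Bach2-vector MPPs differ from the B220+ cells in culture and gate but not in vector. Against them, 9 of 111 list genes passed, 3 higher and 6 lower, beside 6.17% of all genes. These 9 hold Fzd10 and Bmp2, chosen by these values. Among the 104 tested list genes outside the members, 2 passed as higher and 5 as lower. Of the whole list, 5 passed without Bach2-vector replicate 2 or without B220+ replicate 2. All genes had a median difference of -0.25 (-0.06 under quantile normalization) and the list -0.25; 341 of 1048 called genes were higher, and 462 of 1063 under quantile normalization. Beside the members Fzd10 and Bmp2, Rnf43 (2.71 ± 0.42, SE) and Tle2 (2.51 ± 0.60) rose, and Fzd1 (-2.75 ± 0.39), Fzd6 (-2.82 ± 0.54), Ryk (-2.95 ± 0.53), Kremen1 (-1.54 ± 0.32) and the feedback inhibitor Nkd1 (-2.18 ± 0.36) fell. Nkd1 read -3.81, -2.97 and -2.37 with the Bach2 vector and -4.91, -5.33 and -5.46 in the B220+ cells, without overlap (adjusted p = 0.00928). The calls of Nkd1 and Rnf43 held in all 19 alternatives, and that of Fzd1, at least 1.74-fold lower, was lost under normexp. Tle2 was the least stable, with its call lost in 10, among them without any 1 of the 3 Bach2-vector or 3 B220+ arrays or without control-vector replicate 2 or 3. Fzd6 lost its call without Bach2-vector replicate 2 or 3 or B220+ replicate 1 or 2, Kremen1 without the same arrays or with only both groups fitted, and Ryk without Bach2-vector replicate 2 or B220+ replicate 2; all 3 also lost it with the slide as a block. Both B220+ comparisons share the B220+ arrays, so a gene called in each is no repeat observation.

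**Figure D3:**
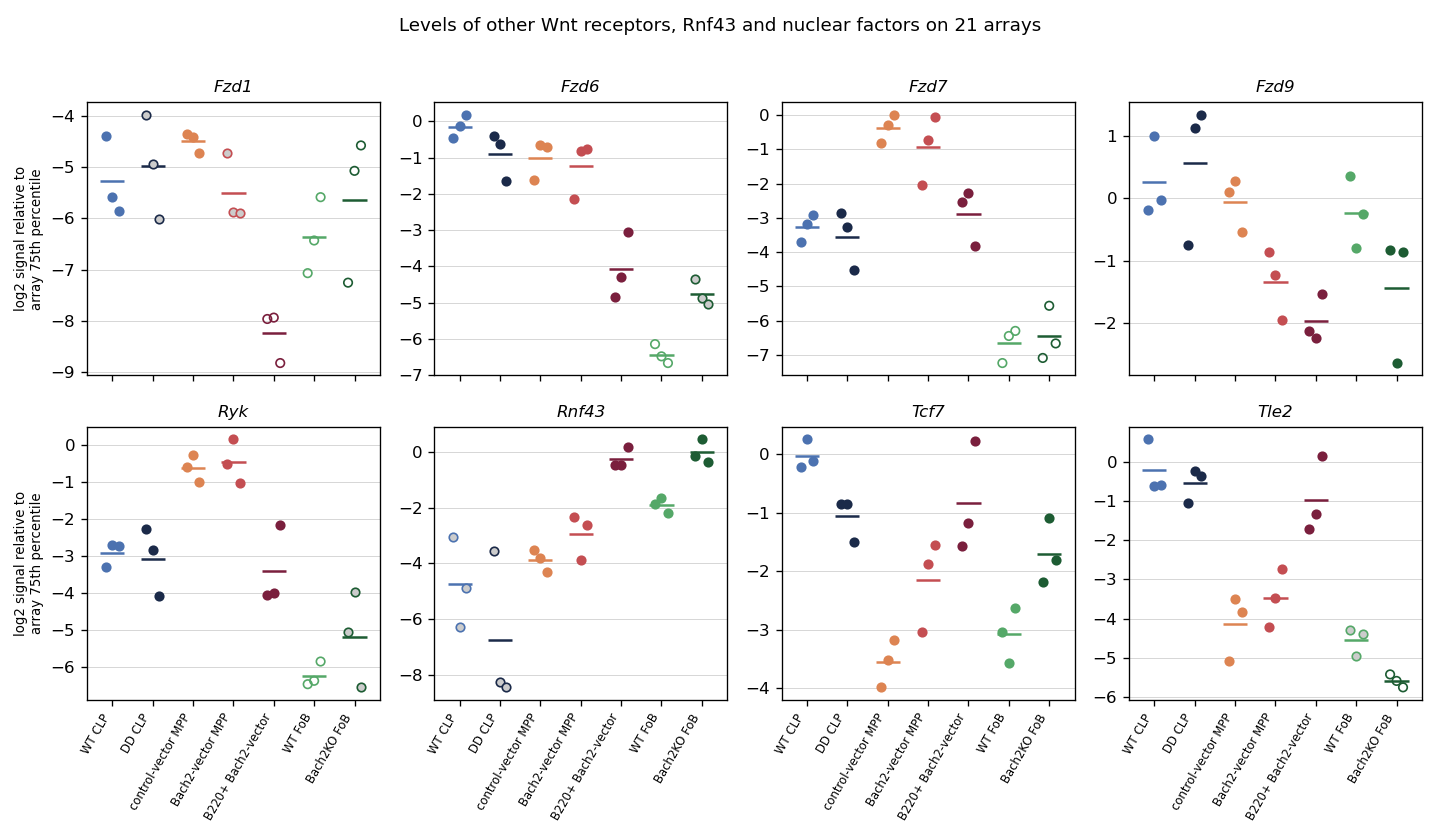
Level of 4 Frizzled receptors, Ryk, Rnf43, Tcf7 and Tle2 (log2 signal minus the 75th percentile of its array, a separate scale per panel) on each of the 21 arrays by group, with a bar at the group mean; filled, grey and open points are groups measured on 3, on 1 or 2, and on 0 of 3 arrays. In the B220+ cells Fzd1, Fzd6 and Ryk lie below both other MPP groups and Rnf43 above them.

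In FoB cells, where Rspo1, Wnt9a, Fzd10 and Bmp2 were not above background, 76 list genes could be tested and 3 passed, all higher in Bach2KO. Of all genes 2.71% passed, and 288 of those 355 were higher in Bach2KO. The list's median difference was 0.11, beside -0.16 over all genes. The BMP ligand Bmp6 read -6.82, -6.43 and -5.17 in WT, on no array above background, and -1.78, -3.27 and -2.52 in Bach2KO. Bmp6 was at least 4.26-fold higher (3.62 ± 0.52, SE, adjusted p = 0.00678), and the call was lost under normexp (adjusted p = 0.517). It met the filter for testing through its Bach2KO arrays alone. Nbl1, a secreted BMP antagonist, read -1.04, -0.71 and -1.35 in WT and 2.70, 1.49 and 1.23 in Bach2KO (2.84 ± 0.43, adjusted p = 0.00880), without overlap, and its call held in all 15 alternatives. Rnf43 read -1.86, -1.66 and -2.19 in WT and -0.14, 0.47 and -0.36 in Bach2KO (1.89 ± 0.34, adjusted p = 0.0201), again without overlap; its call was lost under normexp, without the filter on dim probes, and without WT replicate 2 or 3 or Bach2KO replicate 3. With the replicate number as a block 18 list genes passed, 11 higher and 7 lower, while 22.8% of all genes passed.

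**Figure D4:**
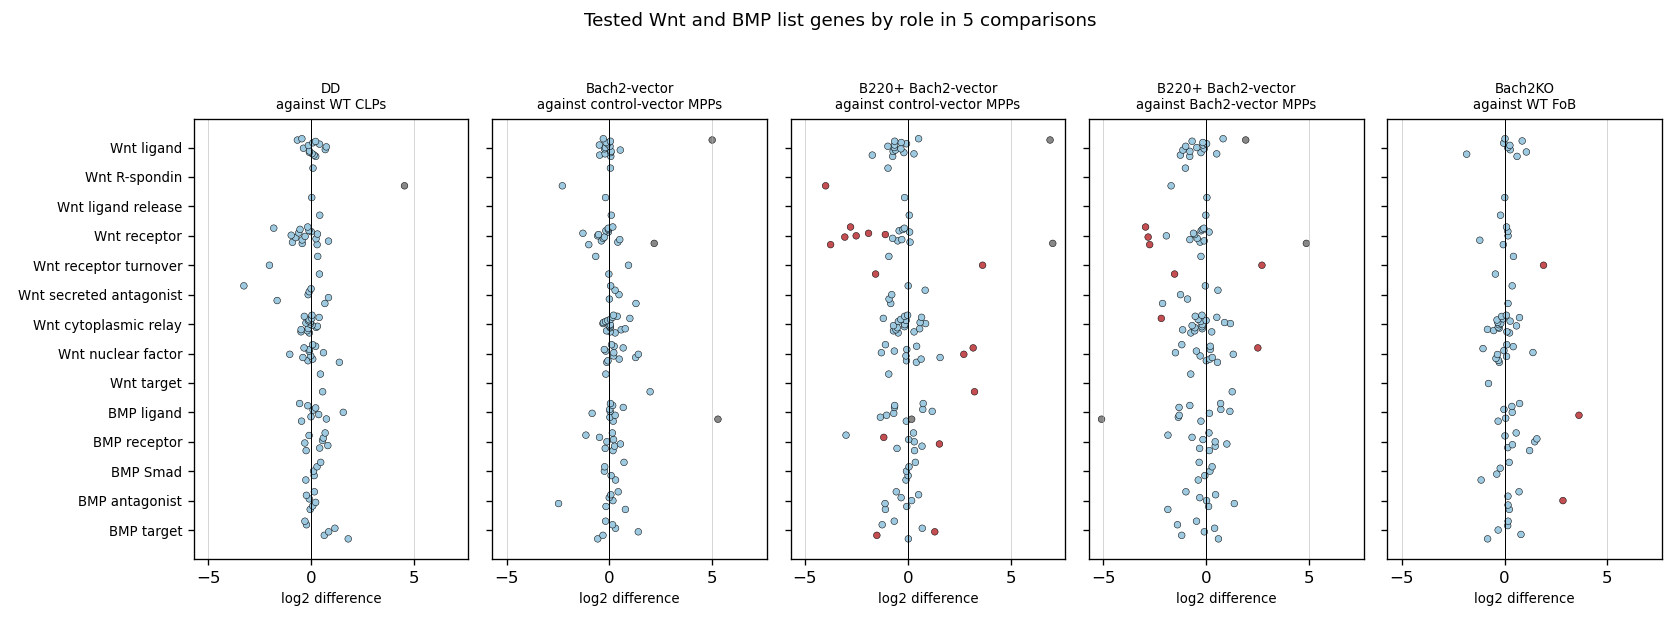
Log2 difference of every tested gene of the Wnt and BMP lists (1 point a gene, horizontal axis) by role in each of 5 comparisons. Red points passed limma's adjusted p threshold of 0.05, blue points did not, and grey points are members whose difference in that comparison chose them; in the B220+ comparison with the control vector, 6 Wnt receptors lie among the red points on the lower side.

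Markers of other cell types moved between some of these groups. In MPPs, 2 of 11 tested dendritic-cell markers and 1 of 7 NK and innate lymphoid markers were higher with the Bach2 vector. There, 1 of 6 megakaryocyte and 1 of 10 granulocyte markers were lower, beside 1.79% of all genes passing in either direction. The summed linear level of 12 dendritic-cell markers (Xcr1 at background throughout) was 9.78 to 18.6 times the 75th percentile with the control vector, 27.9 to 81.3 with the Bach2 vector and 41.4 to 52.6 in B220+ cells. That of 8 NK and innate lymphoid markers (Ncr1 at background) was 19.0 to 25.8, 50.0 to 60.8 and 55.3 to 68.9, and that of 6 megakaryocyte and platelet markers (Ppbp at background in both Bach2-vector groups) 8.10 to 11.7, 1.92 to 2.53 and 0.692 to 0.915. In the MPPs the last sum fell in the order of Rspo1, and Wnt9a was higher where the first and second sums were. Within the last list, Pf4 (means of 3.16, 0.74 and -3.80) and Ppbp ran in this order. Vwf (-3.48, -2.30 and -2.59), Itga2b (-3.88, -2.77 and -3.50), Gp9 (-3.62, -3.50 and -1.94) and Gp1bb did not. Within the first list, Ccr7 (-0.37, 3.21 and 4.01) rose in the order of Wnt9a. Batf3 (0.70, 1.11 and -3.99) and Itgax (-1.44, 0.07 and -2.30) did not. In the second, Klrd1 (-0.48, 4.19 and 5.21) did and Eomes (-5.18, -5.47 and -4.93) did not. Median differences of tested markers in the first list were 1.33 between vectors and -0.12 for B220+ cells against the control vector. Those in the second were 1.09 and 0.27. In CLPs the last sum was 1.01 to 1.27 in WT and 1.04 to 8.63 in DD. What part the 3 lists have in the members' differences was not tested. In B220+ cells all 10 granulocyte markers were measured on every array, at a summed level of 332.2 to 409.5. In each of the other MPP groups 9 of the 10 were measured on every array. Their sums were 386.5 to 412.7 with the control vector and 280.1 to 353.3 with the Bach2 vector. Of 8 B-lineage markers, 5 were measured on every B220+ array and 6 in each of the other MPP groups. Their sums were 9.95 to 16.8 in B220+ cells, 8.19 to 13.3 with the control vector and 11.2 to 13.3 with the Bach2 vector. Among them, Ms4a1 was at background on all 3 B220+ arrays, as it was in both other MPP groups. Between B220+ cells and the control vector 12.1% of all genes passed. There, 4 of 6 lymphoid progenitor, 3 of 8 T-lineage and 2 of 7 NK and innate lymphoid markers were higher and none lower. Higher and lower were 3 and 1 of 11 dendritic-cell, 2 and 2 of 10 granulocyte and 1 and 2 of 6 megakaryocyte markers. They were 1 and 1 of 6 multipotent progenitor, 1 and 0 of 5 follicular B-cell and 0 and 1 of 8 monocyte markers. No B-lineage or stromal marker passed. The lymphoid progenitor sum was 15.0 to 23.8 with the control vector, 26.8 to 39.3 with the Bach2 vector and 87.2 to 108.7 in B220+ cells, and the median difference of the B-lineage list was -0.30. Of 12 stromal and endothelial markers, 8 were measured on every array in each CLP group, 7 with the control vector, 8 with the Bach2 vector, 6 in B220+ cells and 4 in each FoB group, with Pdgfra at background in all 7 groups. Their sum was 10.2 to 16.9 in WT CLPs, 9.66 to 15.9 in DD CLPs, 4.70 to 6.00 with the control vector, 7.52 to 8.53 with the Bach2 vector and 4.28 to 13.4 in B220+ cells. The part of these lists in the members' differences was not tested. In CLPs the granulocyte sum was 32.2 to 74.2 in WT and 38.4 to 85.9 in DD, and all 6 lymphoid progenitor markers were measured on every array of both. In FoB the granulocyte sum was 1.58 to 16.7 in WT and 11.04 to 50.0 in Bach2KO, and its part in the list's differences was not tested.

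The genes most like each member over all 21 arrays, by Pearson's correlation of log2 levels among 16612 genes, were found as a description. The arrays share groups, experiments and amplification, and most of each correlation comes from the groups in which a member is high or unmeasured. For Wnt9a they were Srgap3 (r = 0.94), Glb1l2 (0.89) and Fzd10 (0.80), and for Fzd10 they were Ms4a4b (0.92), Ms4a6b (0.91) and Ptpro (0.87). Srgap3 read -2.94, -2.35 and -2.17 in control-vector MPPs, 0.50, 0.58 and 0.73 in Bach2-vector MPPs and 0.29, 0.85 and 2.05 in B220+ cells, so it was already high where Fzd10 was still low. Nearest to Rspo1 were Myo5a (0.84), Retnlb (0.84) and Serpinf1 (0.80), and nearest to Bmp2 were Sult1a1 (0.88), Tnfrsf11b (0.82) and Mov10 (0.80). Sult1a1 read -4.52, -3.74 and -3.42 in control-vector MPPs, -1.36, -0.86 and -0.36 in Bach2-vector MPPs and -4.61, -4.68 and -4.50 in the B220+ cells. It rose and returned as Bmp2 did, by a smaller size. That shared shape follows from picking Sult1a1 by its correlation with Bmp2 on these arrays. Ctnnb1 was nearest to Hmgb3, Glo1 and Ewsr1 (0.98 each), with the low FoB arrays as the main contrast, Lrp6 to Thrap3, Prr3 and Snrnp70 (0.83 each), and Axin2 to Fhdc1 (0.73), Olfr357 (0.70) and Sorl1 (0.69). Among the members, Bmp2 correlated with Fzd10 at 0.02 and with Rspo1 at 0.11, and Rspo1 with Wnt9a at -0.40.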

How the data were processed

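The values were spot intensity values of single-colour Agilent arrays, background-corrected and processed by Feature Extraction 10.7.3.1 per the file headers (9.1 per the submitters' processing notes), on a linear scale as deposited. The processed table deposited for all arrays repeats them. Per the labels' protocols, CLP and MPP RNA had 2 rounds of amplification and FoB RNA a linear one. From these, log2 values were computed and the 75th percentile of each array's gene spots subtracted; outlier-marked spots were dropped and spots of a probe averaged. Signal over background and the number of arrays, 3 per group, limit the precision.

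Of 55681 probes, 26413 were named through their RefSeq accession (20018 genes, brightest probe each). Genes above background on at least 3 arrays of an experiment were tested with limma 3.58.1 (R 4.3.3, data.table, version 1.17.8) within each experiment, the 9 MPP arrays together, after a check on simulated data. Python 3.11.15, pandas 2.3.3, numpy 2.4.6 and matplotlib 3.10.9 made tables and figures. The members and lists were chosen with earlier results of these data known. Named list genes are those that passed (with over 12, the 6 largest rises and falls), otherwise up to 4 with the smallest p.

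The labels number the replicates. Deviations from group means of same-numbered arrays correlated at 0.43, 0.39 and 0.22 in CLPs, 0.65, 0.41 and 0.30 between vectors and 0.86, 0.72 and 0.53 in FoB. All were over 0.1, which was taken as pairing by number. Differently numbered arrays 2 and 3, which share slide 2 of their experiment, also correlated. Their values were 0.31 and 0.22 between vectors and 0.50 and 0.23 in FoB. A shared number and a shared slide therefore cannot be fully told apart there. In CLPs the number is also the slide. Alternatives were normexp (offset 50, on the median spot and background signals, since the mean signal planned for was not in the files), quantile normalization, other filters, all probes averaged, blocks for replicate or slide, and each array left out.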

Additional observations from a re-analysis of the deposited data

How the results depend on the processing

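Apart from leaving out an array, 241 alternative values of the members' differences kept direction and side of the threshold, 9 turned sign, 4 newly passed, 1 no longer did, and 12 without a test moved by more than the spread. The genes passing in CLPs, 1 with the planned settings, became 0 under quantile normalization and 0 with the replicate block, and so did the list genes; the cause was not tested. Between vectors the list genes passing went from 2 to 4 under normexp, 1 with the filter on every array (where Wnt9a and Bmp2 are no longer tested), 4 with the replicate block and 9 with the block and the vector arrays alone, where 843 genes passed in all. For B220+ cells against Bach2-vector MPPs, 659 genes passed with only both groups fitted, and 14 list genes with the replicate block, although the numbers do not pair those arrays (correlations 0.08, 0.12 and 0.10, and 0.12, -0.04 and -0.06 against the control vector); the block also let Rspo1 pass there (-1.71, adjusted p = 0.00710). In FoB the genes passing were 120 under normexp, 2982 with the replicate block and 1199 with the slide as a block, and the list genes 1, 18 and 9. Of the members' differences that carry a test, the block changed 1 other call, that of Rspo1 between vectors (-2.29, adjusted p = 0.00620). Signs turned for Ctnnb1 under quantile normalization (-0.19 in CLPs, 0.17 for B220+ cells against the control vector and 0.15 against Bach2-vector MPPs) and with the slide as a block (0.32 and 0.28), for Lrp6 with the slide (0.25 and 0.31), and for Axin2 against the control vector under normexp (0.22) and with all probes averaged (0.055). Leaving out each array gave 0 to 16 genes passing in CLPs, 106 to 519 between vectors, 1036 to 2637 for B220+ cells against the control vector, 443 to 1710 against Bach2-vector MPPs and 158 to 440 in FoB; the list genes ranged from 0 to 1, 2 to 3, 11 to 24, 5 to 12 and 2 to 3. Member differences that turned sign on leaving out an array ranged in CLPs from -1.58 to 0.54 (Wnt9a), -1.09 to 0.27 (Fzd10) and -0.18 to 0.24 (Ctnnb1). Between vectors they ranged from -0.16 to 0.36 (Ctnnb1) and -0.30 to 0.16 (Lrp6). For B220+ cells they ranged from -0.32 to 0.032 (Ctnnb1), -1.48 to 0.038 (Axin2) and -0.098 to 0.45 (Bmp2, description only) against the control vector and from -0.51 to 0.0074 (Ctnnb1) and -0.40 to 0.13 (Lrp6) against Bach2-vector MPPs, and in FoB from -0.073 to 0.25 (Lrp6). Where an array left out leaves 2 in a group, limma pools the spread. Low signals limit Axin2 everywhere and Rspo1, Wnt9a, Fzd10 and Bmp2 in FoB.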
